A study of Homo sapiens with 20 samples.

Results

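The genes described here are 44 interferon-stimulated genes, a list of genes that interferons are known to switch on, among 19617 genes with counts. They were taken by name, and each was represented by its GENCODE transcript with the most reads over all libraries. All 44 were found in the count tables. Of these, 29 were expressed, meaning a mean of at least 1 RPM (1 read in 1000000) over the DMSO libraries, and 15 were not.

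Interferons are secreted proteins that bind receptors on the cell surface and activate receptor-bound kinases such as JAK1 and TYK2. Among the proteins these kinases switch on is STAT2, which with IRF9 is part of a complex that binds the interferon-stimulated response element (ISRE), and the gamma-activated sequence (GAS) is another DNA element of the pathway. The induced genes encode sensors of foreign RNA, proteins that block viral replication, the ISG15 conjugation system and regulators such as IRF1 and IRF7 that act on the pathway again.

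MM1.S cells, an established multiple myeloma line labelled as wild type, received 10 nM dCBP-30, a degrader of the coactivator acetyltransferases CBP and p300, or the vehicle DMSO for 2, 6 or 24 h, with 3 libraries in each of the 6 groups. All 18 of these libraries received 4-thiouridine (4sU) in the last hour before harvest, and another 2 libraries received none. In SLAM-seq, 4sU built into new RNA is read as C in place of T after alkylation, so reads with such a conversion (T>C reads) come from RNA made during labelling, while total reads hold older RNA as well. No interferon was given in any group, and all values belong to 1 cell line.

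Libraries held between 12440700 and 18729086 reads on genes. Without 4sU, 0.801% ± 0.0107 (SD, n = 2) of these were T>C reads, while the group means with 4sU ranged from 4.98% to 8.31%. At 24 h a T>C read carried 1.47 ± 0.0432 conversions under dCBP-30 and 2.48 ± 0.0253 under DMSO (SD, n = 3 each), whereas these means differed little at 2 h (2.17 and 2.20) and 6 h (2.24 and 2.17). The cells carried the plasma cell markers, with means from 125 RPM for CD38 to 1521 RPM for MZB1 under DMSO, and all 9 markers fell in T>C reads at each time point and in total reads at 24 h. B cell and myeloid markers stayed under 1 RPM in every labelled library. Of 4 T cell markers CD3D had 0 reads, CD247 and CD2 reached 2.40 and 1.12 RPM, and CD3E reached 15.7 RPM. In total reads CD3E rose at 24 h (1.29 on the log2 scale), while CD247 fell at 24 h (-2.62) and CD2 fell at 6 h. RPM here are scaled to each library's read total multiplied by TMM, a scaling factor from edgeR. The labels do not say that the libraries of a group come from separate cultures, so the p-values measure the spread between these libraries.

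Under DMSO the most abundant members were BST2, a membrane protein that tethers budding virions, with 809 RPM ± 57.7, and ADAR, which edits double-stranded RNA, with 378 RPM ± 27.3 (SD, n = 9). They were followed by EIF2AK2, the RNA-activated kinase PKR, with 166 RPM ± 7.38, ISG20, a 3′ to 5′ exonuclease, with 138 RPM ± 7.93, IRF1 with 113 RPM ± 14.2 and IRF2 with 104 RPM ± 12.7. Over the 9 DMSO libraries the range of IRF1 overlapped those of ISG20 and IRF2, while all values of ISG20 were above those of IRF2. Because the libraries read the 3′ ends of transcripts, these RPM are counts per transcript end and were not divided by length. IFI27 and PSMB8 had 0 reads in all 20 libraries, and IFIT2 and IFITM3 had 0 reads in the 9 DMSO libraries. All reads of PSMB9, which lies close to PSMB8 on chromosome 6, mapped to more than 1 place. Whether reads of PSMB8 were lost in mapping was not tested. The remaining members that were not expressed, IRF7, IFI44, IFI44L, IFIT1, IFITM1, IFITM2, MX2, OASL, DDX60, TRIM22 and PARP9, had means between 0.00754 and 0.724 RPM.

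The share of T>C reads differed widely between members under DMSO. It was 62.8% of the reads of IRF1, 42.0% of IFIT5, 31.8% of IRF9, 30.3% of DDX58 and 29.9% of IFIT3, summed over the 9 DMSO libraries. At the other end stood BST2 with 1.27% and IFI6 with 1.24%. These shares were not corrected for the number of T in the counted stretch, which was 550 for IRF1, 130 for BST2 and 94 for IFI6. The libraries without 4sU gave 1.10% for IRF1, 0.688% for BST2 and 0.355% for IFI6. The median share was 9.22% over the 26 members tested in T>C reads and 11.1% over all 10086 genes tested.

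**Figure D1:**
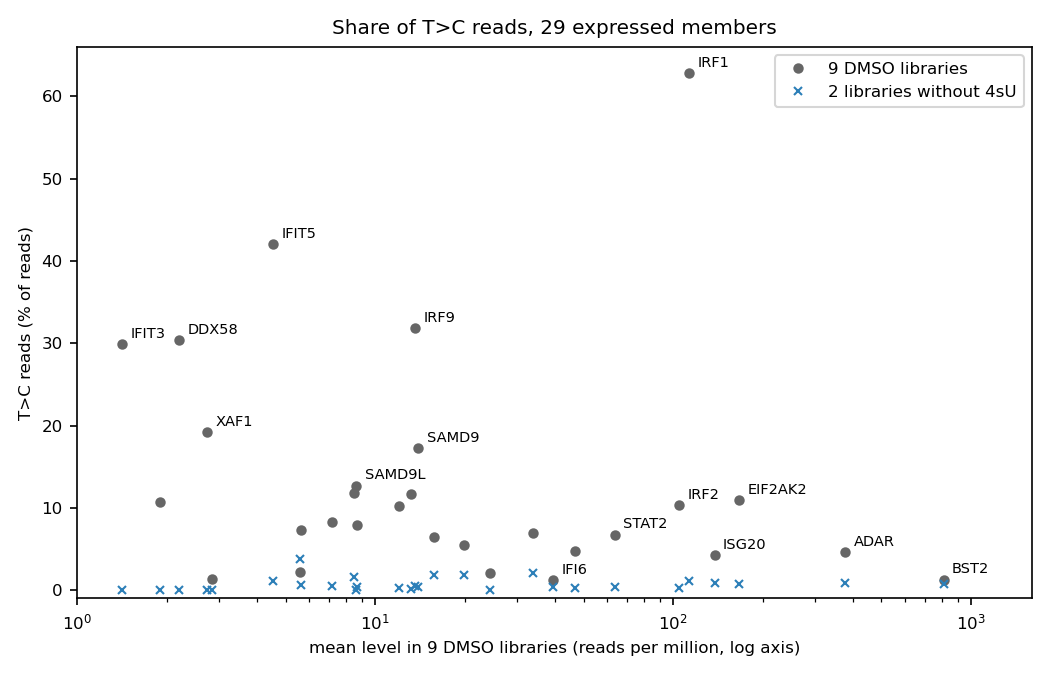
Share of T>C reads (vertical axis, percent of reads) against the mean level in the 9 DMSO libraries (horizontal axis, RPM, log scale) for the 29 expressed members. Circles are the 9 DMSO libraries summed and crosses the 2 libraries without 4sU; IRF1 stands at 62.8% and BST2 at 1.27%.

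Promoter windows from RefSeq (GRCh38.p14), reaching from 250 bases before to 50 bases after the start of the gene, were matched to 35 of the 44 members by symbol. The letters TTCNNTTTC, the core of the ISRE, were found on either strand in 20 of the 35 windows (57.1%), against 2264 of 27305 windows of all genes (8.29%). The letters TTCNNNGAA, the core of the GAS, were found in 9 of the 35 (25.7%), against 7.88% of all windows. The same letters can belong to matches of both motifs or to several matches that overlap. A match describes the sequence and does not show that a factor binds there. The promoters of 5 members are shown as examples that hold at least 1 match. IRF1 was called lower at 2 h, and IFIT3, IFI6, DDX60 and PARP14 were called higher in total reads at 24 h. The calls of IFIT3 and DDX60 have limits that are given below. The 250 bases before the start are given 5′ to 3′ on the strand of the gene, and capitals mark matches of either motif.
IRF1 (chr5:132490774-132491023, minus strand): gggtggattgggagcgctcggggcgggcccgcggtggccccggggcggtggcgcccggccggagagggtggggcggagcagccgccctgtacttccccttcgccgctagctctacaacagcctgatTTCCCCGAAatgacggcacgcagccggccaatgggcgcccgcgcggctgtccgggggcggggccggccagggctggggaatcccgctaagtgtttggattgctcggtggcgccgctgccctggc
IFIT3 (chr10:89327747-89327996, plus strand): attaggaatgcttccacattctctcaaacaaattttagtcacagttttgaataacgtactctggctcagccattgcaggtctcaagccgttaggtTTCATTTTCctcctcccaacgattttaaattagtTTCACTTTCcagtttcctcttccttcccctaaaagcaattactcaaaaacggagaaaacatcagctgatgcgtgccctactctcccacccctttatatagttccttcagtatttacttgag
IFI6 (chr1:27672193-27672442, minus strand): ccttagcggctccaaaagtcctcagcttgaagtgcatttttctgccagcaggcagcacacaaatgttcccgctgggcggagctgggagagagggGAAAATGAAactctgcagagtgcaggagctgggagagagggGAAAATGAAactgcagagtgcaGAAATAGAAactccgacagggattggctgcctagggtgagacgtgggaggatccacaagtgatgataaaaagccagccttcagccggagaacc
DDX60 (chr4:168318753-168319002, minus strand): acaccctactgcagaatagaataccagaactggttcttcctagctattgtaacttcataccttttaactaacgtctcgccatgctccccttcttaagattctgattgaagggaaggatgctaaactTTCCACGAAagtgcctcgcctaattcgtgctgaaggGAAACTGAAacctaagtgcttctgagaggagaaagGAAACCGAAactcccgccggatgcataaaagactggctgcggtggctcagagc
PARP14 (chr3:122680589-122680838, plus strand): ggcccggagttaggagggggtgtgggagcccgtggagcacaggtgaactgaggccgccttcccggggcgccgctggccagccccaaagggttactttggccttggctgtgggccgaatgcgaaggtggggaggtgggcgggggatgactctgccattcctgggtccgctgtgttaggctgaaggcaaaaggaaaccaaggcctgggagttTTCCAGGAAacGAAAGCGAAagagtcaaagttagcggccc
The stretch of IRF1 holds 1 GAS core and no ISRE core. IFIT3 holds 2 ISRE cores and IFI6 holds 3, while DDX60 and PARP14 hold both motifs. Among members whose total reads rose at 24 h, 9 of the 15 with a window held the ISRE core, against 20 of all 35. Among those whose T>C reads fell at 2 h, 2 of 4 did. Of the members that rose, IFI44, IFI44L, DDX60 and PARP9 were not expressed under DMSO. They entered the test through the dCBP-30 libraries of 24 h, and all but PARP9 held the ISRE core. Whether the motif goes with the rise was not tested. STAT2, IRF9, XAF1, PARP9, SP100 and SP110 rose at 24 h and held no ISRE core, and of these only IRF9 held the GAS core.

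At 2 h the members that changed were lower. T>C reads of 5 of the 26 members tested fell and those of 0 rose, where a call needed an adjusted p under 0.05 in edgeR's quasi-likelihood test and a change over 2-fold. The background was 7.14% of all genes tested called lower and 1.66% called higher. The members called were STAT2, IRF1, IRF2, ISG20 and IFIT5. The median log2 fold change was -0.23 over the members and 0.05 over all genes. Total reads of 2 of 38 members, IRF1 and IFIT5, were called lower and 0 higher, against 1.25% and 0.464% of the 12272 genes tested. In bulk RNA, fewer cells that express a gene and less of its RNA per cell cannot be told apart.

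At 6 h T>C reads of 3 members were called lower, IRF1, IRF2 and ISG20, against 17.1% of all genes, and those of IFI6 and XAF1 were called higher, against 2.36%. Total reads of 6 members fell, against 8.67% of genes, namely IRF1, IRF2, ISG20, IFIT5, OAS2 and SAMD9L. Total reads of IFI6 and XAF1 rose, against 7.47% of genes.

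At 24 h members were called in both directions in T>C reads and, with 1 exception, higher in total reads. The median log2 fold change in T>C reads was 0.34 over the members and -0.69 over all genes. T>C reads of IRF2, ISG20 and UBE2L6 were called lower, against 31.2% of all genes, and those of IFI6, DTX3L and XAF1 were called higher, against 2.17%. With library sizes and TMM factors taken from the T>C reads, 0 members were called lower and 8 higher, against 15.0% and 7.55% of all genes. With total reads without TMM factors 1 was lower and 6 were higher, against 17.4% and 5.95%. Total reads of 15 of the 38 members rose and those of ISG20 alone fell, while 15.0% of all genes tested were called higher and 16.1% lower. Of the 38 members, 9 were not expressed under DMSO, and such genes can enter the test only through the group in which they are high. Among the 29 expressed members, 11 rose, against 13.2% of the 10830 expressed genes tested, and the median log2 fold change was 0.77 over these members and -0.04 over these genes. Without TMM factors 27 members were called higher in total reads and 0 lower, and the median over all genes tested was 0.58 in place of 0.05.

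**Figure D2:**
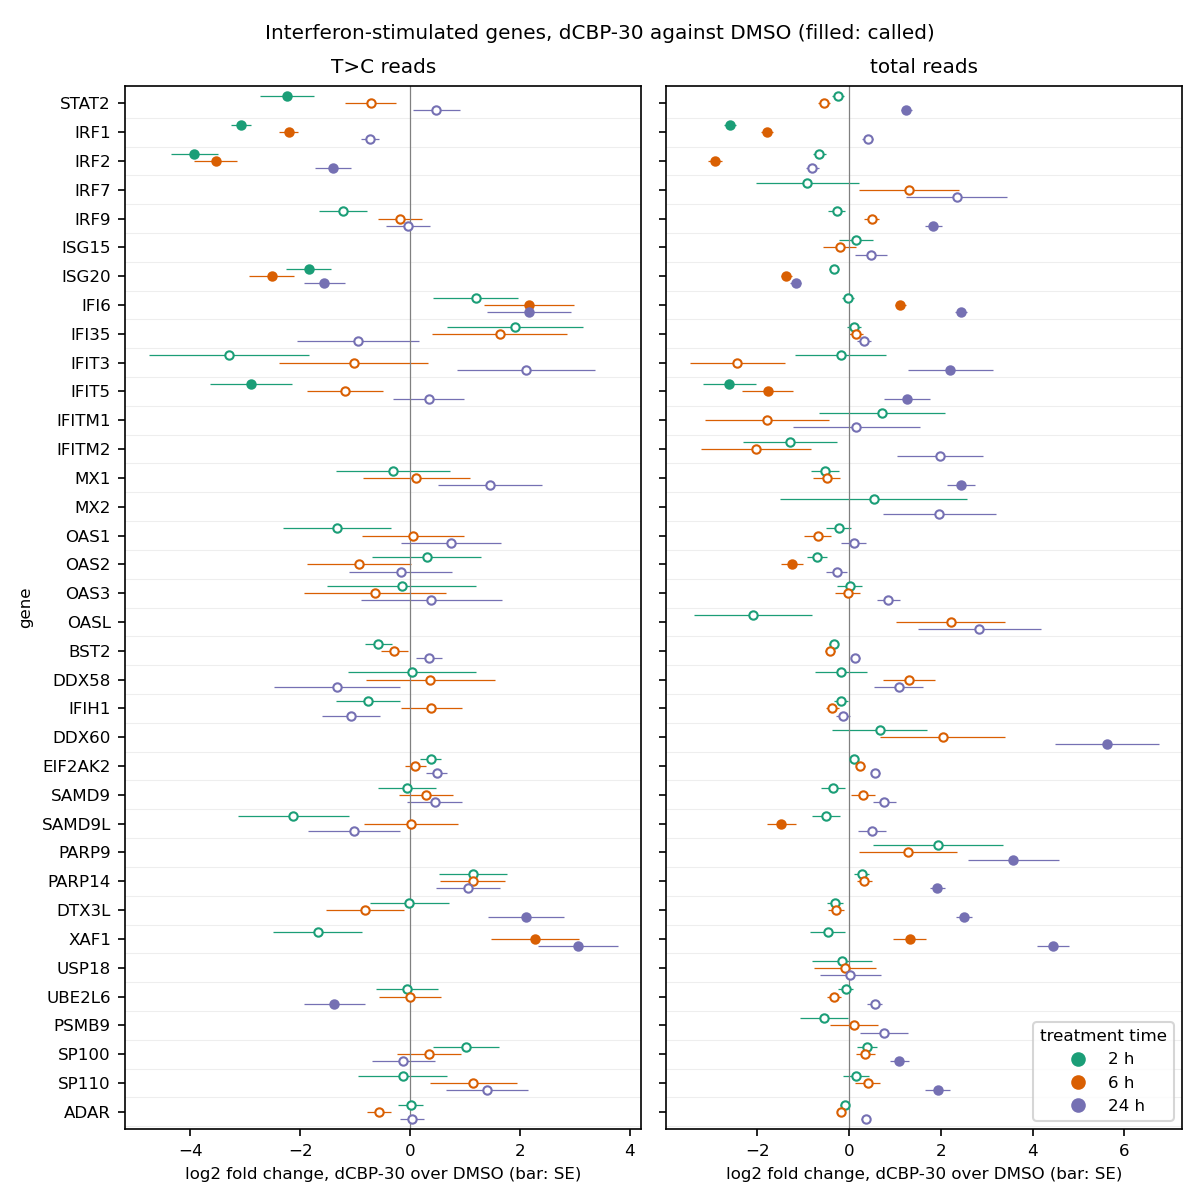
Log2 fold change of dCBP-30 over DMSO (horizontal axis, with the SE as a bar where it could be computed) for each member tested, in T>C reads on the left and total reads on the right, at 2, 6 and 24 h. Filled points were called; IRF2 stands at -3.93 in T>C reads at 2 h and XAF1 at 4.45 in total reads at 24 h. Comparisons in which a group had 0 reads, and IFI44 and IFI44L, are left out.

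Among the regulators, IRF1 is a transcription factor that activates interferon-induced genes, and its reads were counted on the 3′ UTR at chr5:132481609-132483953 (GRCh38, minus strand). Its T>C level at 2 h was 7.42, 7.46 and 8.95 RPM in the dCBP-30 libraries and 61.6, 65.2 and 74.7 RPM in the DMSO libraries. At 6 h it was 18.7, 11.2 and 19.2 RPM against 73.4, 79.4 and 74.4 RPM, and at 24 h 40.2, 39.2 and 46.8 RPM against 73.1, 66.8 and 69.3 RPM. The dCBP-30 libraries lay below all DMSO libraries at each time point, and closest to them at 24 h. The log2 fold change was -3.08 ± 0.18 (SE, adjusted p = 3.66e-21 in edgeR's quasi-likelihood test) at 2 h and -2.21 ± 0.17 (adjusted p = 1.75e-16) at 6 h. At 24 h it was -0.73 ± 0.16, with an adjusted p of 0.000228 in edgeR but a change under 2-fold.

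Total reads of IRF1 were 21.6, 18.2 and 20.03 RPM under dCBP-30 at 2 h against 114, 119 and 128 RPM under DMSO, a log2 fold change of -2.59 ± 0.13. At 24 h they were 125, 132 and 128 RPM against 102, 92.65 and 95.1 RPM, a log2 fold change of 0.41 ± 0.12. The libraries of both treatments did not overlap at either time, lower under dCBP-30 at 2 h and higher at 24 h, although the latter difference was under 2-fold. Without 4sU total reads of IRF1 were 190 and 149 RPM, above every labelled library. The part of labelling in the 24 h difference of IRF1 was not tested. The change between 2 and 24 h passed edgeR's test of the interaction in T>C reads (2.35 ± 0.24, adjusted p = 1.32e-11) and in total reads (3.001 ± 0.18, adjusted p = 9.32e-13).

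IRF2, a relative of IRF1 that binds the same elements and is known mostly as a repressor, had 0.173, 0.198 and 1.06 T>C RPM under dCBP-30 at 2 h. Under DMSO it had 6.31, 8.32 and 8.74 T>C RPM, so that all dCBP-30 libraries were lower. At 6 h the levels were 0.838, 0.499 and 1.10 RPM against 10.6, 7.78 and 10.1 RPM, and at 24 h 7.22, 3.30 and 5.74 RPM against 12.4, 17.3 and 13.5 RPM. Without 4sU IRF2 had 0.117 and 0.471 T>C RPM, a range that held dCBP-30 replicates 1 and 2 at 2 h, while replicate 3 was above it. T>C reads of IRF2 changed by -3.93 ± 0.43 on the log2 scale at 2 h, by -3.54 ± 0.39 at 6 h and by -1.41 ± 0.33 at 24 h. The call at 24 h was lost when library sizes and TMM factors came from the T>C reads (-0.77, adjusted p = 0.0679 in edgeR), without TMM factors (-0.89) and with reads summed over transcripts (-1.29, adjusted p = 0.11).

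The total reads of IRF2 followed later. They were 73.0 RPM ± 9.16 against 114 RPM ± 9.37 at 2 h (SD, n = 3), 13.3 RPM ± 2.13 against 101 RPM ± 16.8 at 6 h, and 56.2 RPM ± 5.79 against 97.9 RPM ± 6.94 at 24 h. Only the difference at 6 h, -2.93 ± 0.15 on the log2 scale (adjusted p = 3.45e-14 in edgeR), was called; those at 2 h (-0.65) and 24 h (-0.80) were under 2-fold.

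STAT2, a partner of IRF9, had 0.345, 1.06 and 1.44 T>C RPM under dCBP-30 at 2 h against 4.16, 6.91 and 2.84 RPM under DMSO. At 6 h it had 1.497, 0.444 and 3.49 RPM against 2.76, 1.94 and 4.20 RPM, and at 24 h 7.39, 5.99 and 8.58 RPM against 5.05, 4.41 and 6.31 RPM. The groups did not overlap at 2 h and overlapped at 6 and 24 h. T>C reads fell at 2 h by 2.24 ± 0.48 on the log2 scale (adjusted p = 4.47e-04 in edgeR), and the estimates were -0.72 at 6 h and 0.48 at 24 h. The difference between 2 and 24 h passed the test of the interaction (2.72 ± 0.64, adjusted p = 8.09e-04 in edgeR). At 6 h a call was made when dCBP-30 6 h replicate 3 was left out (-1.62, adjusted p = 0.0157 in edgeR), and at 24 h when scaled by the T>C reads (1.12, adjusted p = 0.0355).

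Total reads of STAT2 rose at 24 h, to 136, 131 and 163 RPM against 53.3, 63.3 and 64.5 RPM, a log2 fold change of 1.25 ± 0.13 (adjusted p = 6.40e-09 in edgeR). IRF9, the DNA-binding part of the complex, also rose in total reads at 24 h, to 39.6, 39.5 and 49.7 RPM against 12.4, 10.5 and 13.1 RPM (1.84 ± 0.18). For both genes the 3 dCBP-30 libraries were far above those of DMSO. Reads of IRF9 can also belong to another annotated gene whose 3′ UTR overlaps it on the same strand.

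In T>C reads IRF9 was not called at any time. It had 1.725, 2.11 and 1.00 RPM at 2 h against 2.69, 3.03 and 5.53 RPM under DMSO, without overlap, an estimate of -1.22 ± 0.43 (adjusted p = 0.0584 in edgeR). A call at 2 h was made with no filter (adjusted p = 0.0497), without DMSO 2 h replicate 1 (adjusted p = 0.0431) and without dCBP-30 6 h replicate 2 (adjusted p = 0.0424). At 24 h it had 4.27, 4.01 and 6.12 RPM against 4.41, 5.31 and 5.08 RPM, an estimate of -0.04. The libraries of both treatments overlapped at 24 h. IRF7, which amplifies interferon production, had at most 1.12 RPM in a DMSO library, and its total reads gave an estimate of 2.34 ± 1.09 at 24 h (adjusted p = 0.0681 in edgeR).

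**Figure D3:**
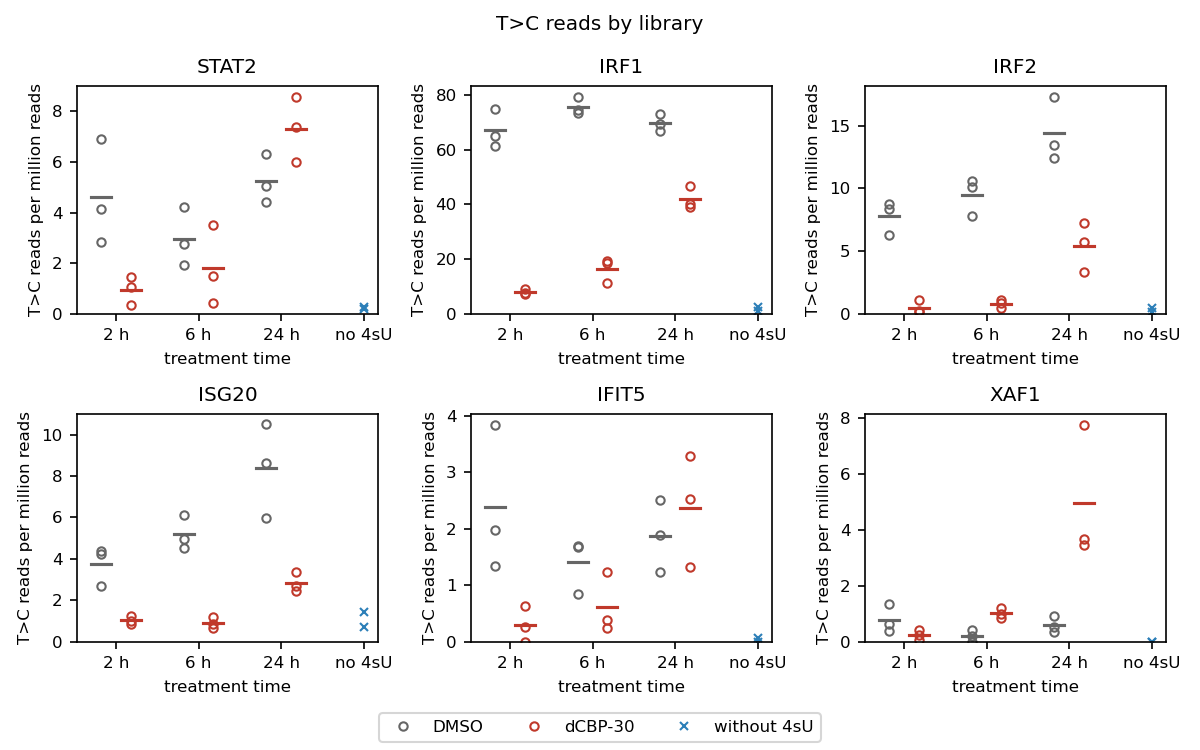
T>C level in RPM (vertical axis) in each library for STAT2, IRF1, IRF2, ISG20, IFIT5 and XAF1, by treatment time (horizontal axis). Circles are libraries, lines are means of 3 libraries, and crosses are the 2 libraries without 4sU. For IRF2 at 2 h the dCBP-30 libraries reach at most 1.06 RPM and the DMSO libraries at least 6.31 RPM.

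ISG20, the exonuclease that degrades single-stranded RNA, was the member called lower in T>C reads at all 3 time points besides IRF2. It had 0.863, 0.990 and 1.25 T>C RPM under dCBP-30 at 2 h against 4.39, 4.23 and 2.69 RPM, and 0.659, 1.17 and 0.858 RPM at 6 h against 4.53, 6.10 and 4.95 RPM. At 24 h it had 2.68, 3.35 and 2.47 RPM against 5.96, 8.64 and 10.5 RPM. All dCBP-30 libraries were below all DMSO libraries, and at 2 and 6 h they lay within or near the 0.701 and 1.41 RPM found without 4sU. The log2 fold changes were -1.85 ± 0.41, -2.52 ± 0.41 and -1.56 ± 0.37 at 2, 6 and 24 h. The 24 h call was lost under scaling to T>C reads (-0.90, adjusted p = 0.0646 in edgeR).

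Total reads of ISG20 were 112 RPM ± 10.3 against 140 RPM ± 7.19 at 2 h, 51.8 RPM ± 4.34 against 134 RPM ± 6.86 at 6 h and 61.8 RPM ± 6.14 against 139 RPM ± 10.8 at 24 h (SD, n = 3). They were called lower at 6 h (-1.37 ± 0.11) and 24 h (-1.17 ± 0.11), the latter not without TMM factors (-0.65). EIF2AK2 had 248 RPM ± 12.3 against 167 RPM ± 12.3 at 24 h (0.57 ± 0.10 on the log2 scale, adjusted p = 1.86e-05 in edgeR) and ADAR 471 RPM ± 1.25 against 366 RPM ± 8.14 (0.36 ± 0.10), both under 2-fold.

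IFIT proteins bind RNA that lacks the marks of the cell's own messages, and 2 of the 4 were expressed. IFIT5 had 0, 0.264 and 0.626 T>C RPM under dCBP-30 at 2 h and 3.85, 1.97 and 1.34 RPM under DMSO, from 14 and 96 T>C reads in all. Its total reads were 0.431, 0.726 and 1.63 RPM against 8.70, 3.39 and 5.60 RPM. No library overlapped in either readout. IFIT5 fell at 2 h by 2.90 ± 0.75 in T>C reads (adjusted p = 0.00424 in edgeR) and by 2.62 ± 0.58 in total reads (adjusted p = 0.00706). The T>C call was lost without DMSO 2 h replicate 1, and the call in total reads without that library or dCBP-30 2 h replicate 1.

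At 6 h IFIT5 had 0.239, 0.388 and 1.23 T>C RPM against 0.849, 1.68 and 1.70 RPM, and at 24 h 3.28, 1.32 and 2.52 RPM against 1.23, 2.50 and 1.89 RPM, with overlap at both times and no call. Total reads were called lower at 6 h (-1.78 ± 0.56), a call that was lost without dCBP-30 6 h replicate 1 or DMSO 6 h replicate 2. At 24 h total reads rose to 8.92, 8.40 and 8.42 RPM against 1.55, 4.53 and 4.64 RPM (1.26 ± 0.51, adjusted p = 0.0371 in edgeR). This call was lost without any one of the 3 dCBP-30 24 h libraries or DMSO 24 h replicate 1, and with reads summed over transcripts (1.19, adjusted p = 0.0857). The turn from 2 to 24 h passed the test of the interaction in T>C reads (3.24 ± 0.98) and in total reads (3.88 ± 0.77).

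IFIT3 was covered by 3 T>C reads in the dCBP-30 libraries at 2 h and by 29 in the DMSO libraries, a ratio 10.2-fold lower with a 95% counting interval of 3.16 to 52.2, and it was not called (adjusted p = 0.161 in edgeR). Of those 29 reads, 20 lay in 1 library. Its total reads at 24 h were 5.58, 2.91 and 9.50 RPM against 1.30, 1.13 and 1.45 RPM, a rise of 2.21 ± 0.93 (adjusted p = 0.0449 in edgeR). That call was lost when any one of 9 of the 18 libraries was left out, namely dCBP-30 2 h replicate 1, DMSO 2 h replicate 3, DMSO 6 h replicates 2 and 3, dCBP-30 24 h replicates 1 and 3, and any of the DMSO 24 h libraries. It was also lost with DESeq2 (adjusted p = 0.12), with the replicate block (adjusted p = 0.0648) and with reads summed over transcripts (adjusted p = 0.141). IFIT2 had 65 total reads under dCBP-30 at 24 h and 0 under DMSO, at least 18.1-fold higher against a floor of 3 counts over the group, and was not tested. IFIT1 had means of at most 0.672 RPM in any group.

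XAF1, a factor known for promoting apoptosis by binding XIAP, showed the largest late rise among the expressed members. Its total reads were 4.49, 1.06 and 1.19 RPM under dCBP-30 at 2 h against 2.92, 2.12 and 3.88 RPM, and 5.57, 6.10 and 6.13 RPM at 6 h against 1.42, 3.28 and 2.37 RPM. At 24 h they were 61.7, 62.8 and 61.3 RPM against 3.50, 2.38 and 2.61 RPM. The groups overlapped at 2 h, and at 6 and 24 h all dCBP-30 libraries were higher. The log2 fold changes were 1.32 ± 0.36 at 6 h (adjusted p = 0.00482 in edgeR) and 4.45 ± 0.36 at 24 h (adjusted p = 1.61e-10).

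T>C reads of XAF1 at 24 h were 3.67, 3.46 and 7.78 RPM against 0.907, 0.358 and 0.508 RPM, a rise of 3.06 ± 0.72 (adjusted p = 4.27e-04 in edgeR). At 6 h they were 1.20, 0.999 and 0.858 RPM against 0, 0.402 and 0.203 RPM (2.28 ± 0.80), and at 2 h 0.431, 0.0660 and 0.250 RPM against 0.385, 0.635 and 1.34 RPM without a call. The call at 6 h was lost without dCBP-30 6 h replicate 1 or 2, DMSO 6 h replicate 1 or 3, or dCBP-30 24 h replicate 3, with each time point fitted alone and with the background subtracted. The libraries without 4sU had 0 T>C reads of XAF1.

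IFI6, a small membrane protein that limits replication of some viruses, rose in total reads at the same times, 6 and 24 h, from a higher level. Total reads were 38.5, 38.1 and 32.1 RPM against 34.5, 36.7 and 39.2 RPM at 2 h, 69.4, 79.9 and 86.2 RPM against 32.8, 35.9 and 39.7 RPM at 6 h, and 231, 239 and 270.3 RPM against 48.8, 41.0 and 46.5 RPM at 24 h. The 2 h libraries overlapped and the later ones did not. The log2 fold changes were 1.12 ± 0.12 at 6 h (adjusted p = 5.34e-08 in edgeR) and 2.44 ± 0.13 at 24 h (adjusted p = 1.52e-14).

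Few reads of IFI6 carried a conversion. Its T>C levels were 0.863, 0.132 and 2.88 RPM against 0.462, 0.635 and 0.597 RPM at 2 h, 1.14, 1.61 and 1.65 RPM against 0.495, 0.402 and 0.0678 RPM at 6 h, and 2.57, 2.69 and 2.84 RPM against 0.194, 0.596 and 1.02 RPM at 24 h. The libraries without 4sU had 0 and 0.269 RPM. At 6 h (2.17 ± 0.82, adjusted p = 0.0434 in edgeR) and 24 h (2.16 ± 0.77, adjusted p = 0.0201) T>C reads were called higher. The call at 6 h was lost without any one of 8 libraries (the 3 dCBP-30 libraries of 6 h, the 3 of 24 h, and DMSO 6 h replicates 2 and 3), and that at 24 h without DMSO 24 h replicate 1 or 2. With the background subtracted both calls were lost, and that at 6 h also with each time point fitted alone, with the replicate block and with reads summed over transcripts.

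**Figure D4:**
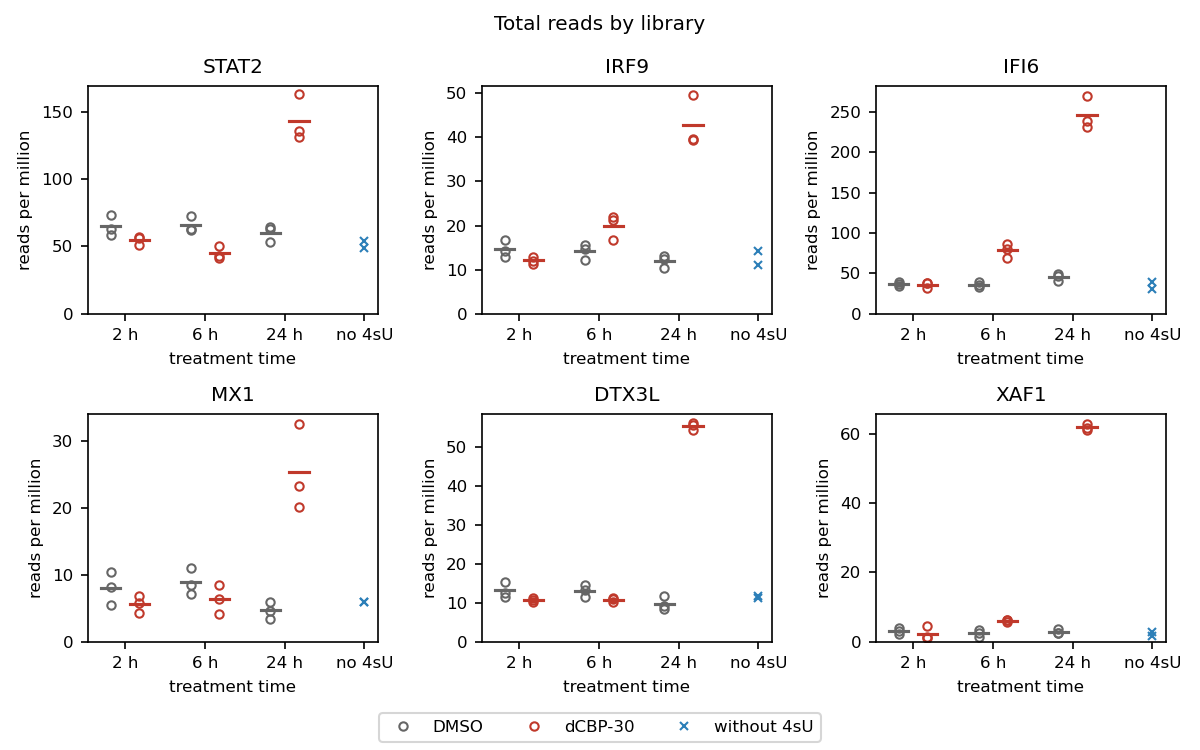
Total reads in RPM (vertical axis) in each library for STAT2, IRF9, IFI6, MX1, DTX3L and XAF1, by treatment time (horizontal axis). Circles are libraries, lines are means of 3 libraries, and crosses are the 2 libraries without 4sU. At 24 h all dCBP-30 libraries lie above all DMSO libraries in the 6 genes.

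All 3 members of the ADP-ribosyl group rose in total reads at 24 h. DTX3L is a ubiquitin ligase that works in a complex with PARP9, and PARP14 is a mono-ADP-ribosyltransferase. DTX3L had 54.4, 55.8 and 56.2 RPM against 8.49, 11.6 and 9.06 RPM (2.51 ± 0.17, adjusted p = 4.67e-12 in edgeR). PARP14 had 68.7, 58.2 and 61.6 RPM against 20.7, 14.7 and 14.4 RPM (1.92 ± 0.16, adjusted p = 2.25e-10). PARP9, not expressed under DMSO, had 64, 89 and 67 reads against 9, 3 and 3 reads (3.58 ± 1.00, adjusted p = 0.00343). The groups did not overlap in any of them, and at 2 and 6 h none of the 3 was called. PARP9 entered the test through the dCBP-30 libraries of 24 h, so its call is no independent support.

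In T>C reads at 24 h DTX3L had 5.20, 6.37 and 4.13 RPM against 0.842, 2.09 and 0.653 RPM, a rise of 2.11 ± 0.68 (adjusted p = 0.0108 in edgeR). The call was lost without DMSO 24 h replicate 1 or 3 and with reads summed over transcripts. The T>C levels of DTX3L varied widely within groups at 2 h, with 0.863, 0.132 and 2.25 RPM against 2.39, 0.423 and 0.523 RPM, and at 6 h, with 1.62, 0.444 and 0.184 RPM against 0.991, 0.603 and 2.37 RPM. For PARP9, 27 T>C reads were found with dCBP-30 at 24 h and 0 with DMSO, at least 7.51-fold higher, but was not tested in T>C reads. The share of T>C reads and the conversions per T>C read also differed between treatments at 24 h, and their part in the T>C results at 24 h was not tested.

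MX1, a GTPase that traps viral nucleoprotein complexes, had 20.1, 23.2 and 32.6 RPM in total reads at 24 h against 4.60, 3.40 and 5.95 RPM (2.45 ± 0.30, adjusted p = 1.87e-07 in edgeR). Its relative MX2 had 2.23 RPM ± 0.27 against 0.561 RPM ± 0.972 (SD, n = 3), where all reads of the DMSO group came from 1 library, and was not called. BST2 had 871 RPM ± 43.7 against 792 RPM ± 71.3 at 24 h, with overlap (0.14 ± 0.10). The IFITM proteins, which block viral entry, were not expressed; IFITM2 had 3.46 RPM ± 1.13 against 0.870 RPM ± 0.141 at 24 h without overlap or a call (1.98 ± 0.94, adjusted p = 0.0739 in edgeR).

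Of the RNA sensors, DDX60, a helicase linked to RNA sensing, had 71, 117 and 69 total reads at 24 h against 2, 1 and 1 reads (5.62 ± 1.13, adjusted p = 1.43e-04 in edgeR). DDX58, which encodes RIG-I, had 6.66 RPM ± 1.12 against 3.14 RPM ± 0.38 (1.08 ± 0.53, adjusted p = 0.082). IFIH1, which encodes MDA5, had 32.8 RPM ± 5.45 against 35.9 RPM ± 3.04 (-0.13 ± 0.15, adjusted p = 0.46). DDX60 was not expressed under DMSO and entered the test through the dCBP-30 libraries of 24 h, so its call is no independent support, and no difference between the sensors was tested. DDX58 shares its 3′ UTR with another annotated gene on the same strand.

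The OAS enzymes make oligoadenylates that activate RNase L, and none of the 3 tested in T>C reads was called there, while OASL was not tested in them. OAS2 fell in total reads at 6 h, to 7.06, 3.50 and 5.58 RPM against 10.05, 16.9 and 11.3 RPM (-1.25 ± 0.24, adjusted p = 1.66e-04 in edgeR). The groups did not overlap, and the call was lost without DMSO 6 h replicate 2 (-0.99) or without TMM factors (-0.93). At 24 h OAS2 had 11.3 RPM ± 0.469 against 13.6 RPM ± 2.14. OAS3 had 12.4 RPM ± 0.086 against 6.84 RPM ± 0.844 at 24 h, a difference under 2-fold (0.86 ± 0.26, adjusted p = 0.00624 in edgeR), and OAS1 10.3 RPM ± 1.68 against 9.61 RPM ± 1.26.

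Of the ISG15 conjugation system, ISG15 itself was low. Its total reads were 3.97, 7.85 and 5.13 RPM against 7.08, 2.61 and 5.75 RPM at 2 h, 5.51, 5.16 and 3.49 RPM against 8.42, 4.02 and 3.93 RPM at 6 h, and 8.97, 8.90 and 7.83 RPM against 6.09, 4.35 and 8.05 RPM at 24 h. The groups overlapped at all 3 times and none was called. ISG15 had at most 10 T>C reads in a library and was not tested in them. Its reads were counted on a stretch of 62 bases that holds 8 T. The share of T>C reads was 2.22% over the DMSO libraries and 3.79% over the libraries without 4sU. UBE2L6, the E2 enzyme for ISG15, had 71.8 RPM ± 6.54 against 48.9 RPM ± 6.12 in total reads at 24 h, under 2-fold (0.56 ± 0.16, adjusted p = 0.00381 in edgeR).

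In T>C reads UBE2L6 had 1.38, 0.924 and 2.63 RPM against 1.15, 1.48 and 2.54 RPM at 2 h, and 0.958, 1.498 and 2.64 RPM against 1.98, 1.61 and 1.49 RPM at 6 h, with overlap. At 24 h it had 1.37, 1.76 and 0.536 RPM against 3.24, 4.05 and 2.25 RPM, a fall of 1.38 ± 0.56 on the log2 scale (adjusted p = 0.0423 in edgeR). That call was lost without dCBP-30 24 h replicate 1 or 3 or DMSO 24 h replicate 1 or 2, and under both other scalings (-0.71 scaled by T>C reads and -0.86 without TMM factors). It was also lost with no filter (adjusted p = 0.0592), with the background subtracted (adjusted p = 0.051) and with the replicate block (adjusted p = 0.0517). USP18, the protease that removes ISG15, had 1.54 RPM ± 0.99 against 1.51 RPM ± 1.09 at 24 h, but all of its reads mapped to more than 1 place. The same held for PSMB9, a subunit of the immunoproteasome.

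The nuclear body proteins SP100 and SP110 both rose in total reads at 24 h. SP110 had 35.7, 38.8 and 27.5 RPM against 8.10, 7.39 and 11.3 RPM (1.93 ± 0.27, adjusted p = 1.48e-06 in edgeR). SP100 had 21.8, 30.2 and 31.1 RPM against 15.6, 11.03 and 12.3 RPM (1.09 ± 0.21), a call that was lost without DMSO 24 h replicate 2 or with reads summed over transcripts (0.81). Neither was called at 2 or 6 h.

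IFI44L and IFI44, interferon-induced genes whose products are less well characterised, had 0 reads in the DMSO libraries at 24 h. IFI44L had 59, 36 and 22 reads under dCBP-30, at least 32.5-fold higher against a floor of 3 counts over the group (adjusted p = 0.00128 in edgeR and 0.0513 in DESeq2). IFI44 had 14, 12 and 14 reads, at least 11.1-fold higher (adjusted p = 0.00347 in edgeR). Both genes entered the test through the dCBP-30 libraries of 24 h, so their calls are no independent support. TRIM22 had 24 reads against 0 and was not tested. SAMD9L, a restriction factor of the SAMD9 family, fell in total reads at 6 h, to 2.75, 3.88 and 3.25 RPM against 4.81, 11.2 and 11.7 RPM (-1.48 ± 0.32, adjusted p = 5.55e-04 in edgeR), while SAMD9 was not called at any time. IFI35 was not called either, with 30.3 RPM ± 3.88 against 24.1 RPM ± 2.53 at 24 h.

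Across the course, the change from 2 h to 6 h in T>C reads passed the test of the interaction upward for IRF1 and XAF1, against 0.684% of all genes, and downward for 0 members, against 7.35%. From 2 h to 24 h it passed upward for 7 of the 26 members, STAT2, IRF1, IRF2, IFIT3, IFIT5, BST2 and XAF1, against 3.02% of genes, and downward for 0 members, against 23.0%. In total reads it passed upward for 17 of 38 members, against 18.3%, and downward for ISG20, against 22.8%. These calls needed an adjusted p under 0.05 in edgeR's quasi-likelihood test and no minimum fold, and both comparisons share the 2 h libraries. In total reads, 9 of the 38 members were not expressed under DMSO and can enter the test only through groups in which they are high. DDX60 and OASL, both called upward, are among them, and a count over expressed members alone was not made. Between the DMSO libraries at 2 and 24 h, 0 of 38 members were called in either direction in total reads, against 0.0326% of genes lower and 0.0244% higher. STAT2 and IFIT5 were called lower in T>C reads at 2 h and higher in total reads at 24 h.

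Other genes of the interferon pathway were taken from a list of 34, of which 26 were tested in total reads and 22 in T>C reads. In T>C reads 5 of them fell at 2 h, where 7.14% of all genes tested did. At 6 h 6 fell (17.1% of all genes) and at 24 h 4 fell (31.2% of all genes), the last a smaller share than that of all genes. At each time 1 rose, where 1.66%, 2.36% and 2.17% of all genes did. In total reads 2 fell at 2 h (1.25% of all genes), 6 fell at 6 h (8.67%) and 3 fell at 24 h (16.1%). Total reads of 6 rose at 24 h (15.0% of all genes) and those of 0 did so earlier. TLR3, among these 6, had a mean of 0.396 RPM over the DMSO libraries and was thus not expressed. It entered the test through the dCBP-30 libraries of 24 h, so its call is no independent support. Of the receptors, IFNAR2, which binds type I interferon with IFNAR1, had 146 RPM ± 7.37 against 329 RPM ± 10.9 in total reads at 24 h (-1.17 on the log2 scale) and was lower in T>C reads at each time. IFNAR1 was lower in T>C reads at 2 h (-1.22), and its total reads at 24 h were 106 RPM ± 2.13 against 148 RPM ± 1.84. STAT3 rose in total reads at 24 h (1.32 on the log2 scale), as did IL10RB, a receptor chain shared with type III interferon (1.11), MYD88 (1.18) and MAVS, the adaptor of the RNA sensors (1.10). STING1 and TLR3, also called higher, were low under DMSO at 24 h, with 4.15 RPM ± 1.83 against 0.650 RPM ± 0.421 for STING1 and 3.71 RPM ± 1.43 against 0.202 RPM ± 0.247 for TLR3 (SD, n = 3).

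PTPN6, a phosphatase that dampens JAK signalling, had 47.8 RPM ± 4.995 against 153 RPM ± 2.59 in total reads at 24 h (-1.68). IFNLR1, the specific receptor for type III interferon, fell in total reads at 2 h, to 6.19 RPM ± 0.112 against 21.1 RPM ± 4.24 (-1.77), and had 19.7 RPM ± 2.52 against 20.7 RPM ± 1.84 at 24 h. The interferon genes on the list were at or near 0: IFNA1, IFNK and IFNE had 0 reads in the 20 libraries, IFNG 3, IFNB1 5 and IFNL1 12.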

How the data were processed

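Counts of SLAM-seq reads were analysed for 20 MM1.S libraries. The authors trimmed the reads with Trim Galore, processed them with Slamdunk on hg38 3′ UTRs and deposited raw counts per transcript of reads and T>C reads, with no pooling and no normalization. Of 97466 transcript rows, 89088 (91.4%) matched GENCODE release 44 by identifier, which gave 19617 genes. The gene DDX58 is named RIGI there.

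Tests used edgeR 4.0.16, limma 3.58.1 and DESeq2 1.42.0 in R 4.3.3, with tables and plots made in Python 3.11.15. The robust quasi-likelihood test of edgeR used all 18 labelled libraries with 1 mean for each group, the filterByExpr filter (minimum count 10), total reads with TMM factors as library sizes, and Benjamini-Hochberg adjustment over all genes tested. T>C and total reads were fitted separately. Labelled Drosophila RNA was added before alkylation per the methods of the study; whether it entered a normalization is not given in the sources used here, and no spike-in was used in these fits. The fits were tested on simulated data in which changes were placed only in genes with many T>C reads, with the same spread for all genes. The simulation therefore does not cover members with few T>C reads. Reads of the 2 libraries without 4sU were scaled by their totals alone. Errors of fold changes are SE, and counting intervals cover counting error only.

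Library values are given for members called in T>C reads with a mean of at least 20 of them in the higher group, for IRF1, IRF9, STAT2 and ISG15, and for members whose total reads were called; the last group was added after values were seen, as was the interaction test in total reads. The members and lists were chosen with earlier results of these data known. An item of the list of other pathway genes is not reported here and was left out of its counts. Copies of libraries were looked for: the lowest chi-square per degree of freedom within a group was 8.54. Replicate numbers did not pair the libraries, with correlations of same-numbered deviations between -0.187 and 0.0449. The alternatives were other scalings, filters, cutoffs and tools, each time point alone, background subtraction, a replicate block, reads summed over transcripts and leaving out each library.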

Additional observations from a re-analysis of the deposited data

Results flagged for a closer look

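The results here are differences between time points in the effect of dCBP-30, each from edgeR's quasi-likelihood test of the interaction over all genes tested, given as the log2 fold change at the later time minus that at 2 h. All comparisons share the 2 h libraries. In T>C reads the difference between 6 and 2 h was 0.86 for IRF1 (adjusted p = 0.0138) and 3.95 for XAF1 (adjusted p = 0.0184). The first was no longer called without dCBP-30 6 h replicate 1 or 3, and the second without dCBP-30 2 h replicate 2, DMSO 2 h replicate 3 or DMSO 6 h replicate 1, or with reads summed over transcripts.

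Between 24 and 2 h in T>C reads it was 2.72 for STAT2, 2.35 for IRF1, 2.52 for IRF2, 3.24 for IFIT5 and 4.74 for XAF1, all kept when any 1 library was left out. It was 5.41 for IFIT3 (adjusted p = 0.0295), lost with 6 of the 18 libraries left out in turn, and 0.93 for BST2 (adjusted p = 0.0359), lost with 10 of them. The call of IFIT3 was also lost with the background subtracted and with reads summed over transcripts, and that of BST2 with no filter. The fold change of IFIT3 rests on 3 T>C reads in the dCBP-30 libraries at 2 h. That of IRF2 was not called with reads summed over transcripts (2.27).

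In total reads the difference between 24 and 2 h was 3.001 for IRF1, 1.4985 for STAT2, 2.12 for IRF9 and -0.84 for ISG20. The estimates at 2 and 24 h were opposite in sign for IRF1 (-2.59 and 0.41), STAT2 (-0.25 and 1.25) and IRF9 (-0.28 and 1.84). Among the effectors it was 3.88 for IFIT5, 2.47 for IFI6, 2.97 for MX1, 4.92 for XAF1, 2.81 for DTX3L, 1.65 for PARP14 and 1.77 for SP110. Smaller differences were 0.47 for BST2, 0.47 for EIF2AK2 and 0.46 for ADAR. Without 1 library in turn, the calls were lost for OASL (4.95, lost with 8 libraries), DDX60 (4.95, lost without DMSO 2 h replicate 2 and with reads summed over transcripts), SAMD9 (1.11, lost without dCBP-30 2 h replicate 2 or DMSO 2 h replicate 1) and UBE2L6 (0.63, lost with 4 libraries). OASL had 0, 4 and 2 reads under dCBP-30 at 2 h and 3, 1 and 0 under DMSO at 24 h. OASL and DDX60 were not expressed under DMSO, so their calls are no independent support.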

How the results depend on the processing

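No called direction reversed under any alternative. Estimates that were not called were followed over the alternatives only for IRF1, IRF9 and STAT2 at 2, 6 and 24 h. Of these, the estimates of IRF9 in T>C reads changed sign. At 6 h (-0.18) they ran up to 0.14 under other settings and 0.32 with 1 library left out. At 24 h (-0.04) they ran up to 0.60 and 0.07. Of the counts, members higher in T>C reads at 6 h (2) became 0 with each time point fitted alone and with the background subtracted, and 1 with a filter of 20 T>C reads on average and with the replicate block. At 24 h in T>C reads, 3 lower and 3 higher became 0 and 8 when scaled by the T>C reads with their own TMM factors (15.0% and 7.55% of all genes). They became 1 and 6 with total reads without TMM factors (17.4% and 5.95% of all genes). Without TMM factors, total reads at 24 h gave 0 lower and 27 higher in place of 1 and 15. With reads summed over transcripts, the change from 2 to 6 h in T>C reads was higher for 1 member in place of 2, and total reads at 6 h for 4 in place of 2. Leaving out 1 library gave 0 to 2 members higher in T>C reads at 6 h, 1 to 3 at 24 h (1 without DMSO 24 h replicate 1), 1 to 3 for the change from 2 to 6 h, and 1 to 2 lower in total reads at 2 h (1 without DMSO 2 h replicate 1). The replicate block, whose numbers did not pair the libraries, gave 5 lower and 0 higher in T>C reads at 2 h and 14 higher in total reads at 24 h, and it ended the calls of IFI6 at 6 h and UBE2L6 at 24 h in T>C reads and of IFIT3 at 24 h in total reads. The cause of these shifts was not tested, other than that scalings move all genes: the median over all genes in T>C reads at 24 h was -0.69 here, -0.04 scaled by the T>C reads and -0.16 without TMM factors. Low counts also limit the T>C results, in which 18 of the 44 members were not tested.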
